A study of Schizosaccharomyces pombe with 6 samples.

Results

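The bins described here are the 340 places in the fission yeast genome, each 1 kb wide, where Rad52 chromatin immunoprecipitation recovered less DNA, relative to input, than at the median probe on every array of the series. They were chosen from 9625 bins (3.53%) by their own log2 ratio of immunoprecipitate over input, centred on the median of the array: a bin had to lie at -0.1 or less on all 6 arrays, and the means of the strains had to differ by less than 0.4. The strains were a rad3-deleted cdc25-22 strain (3 arrays) and the cdc25-22 strain (3 arrays) of Schizosaccharomyces pombe; both therefore carried cdc25-22, a temperature-sensitive allele of the phosphatase that starts mitosis, and rad3 encodes the ATR-like checkpoint kinase. Both strains were synchronised by 4 h at 36.5 °C; the cells were then returned to 25 °C in the presence of 6 mM of the nucleotide-depleting drug hydroxyurea. On each array the immunoprecipitate was read in the green channel and its input in the red channel; no array had the dyes exchanged, and all 6 were Rad52 immunoprecipitates with no control immunoprecipitate among them, so unspecific loss and loss of Rad52 cannot be told apart at any bin. Nothing in the labels says that the 3 arrays of a strain came from separate cultures, so the spread between arrays may be technical.

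The strain labels of the arrays went against the data. Of the 33 probes in rad3, 9, 10 and 9 were dim in both channels on 3 arrays, and 0 on each of the other 3, but 2 of the 3 arrays with dim rad3 probes were listed as cdc25-22 (replicates 1 and 2) and only 1 as rad3-deleted (replicate 3). The deposited value table places the same files of replicates 1 and 2 under the opposite strain. The strain limit of the rule follows that table, and so do the names used below: rad3-deleted arrays 1, 2 and 3 are the arrays with dim rad3 probes, cdc25-22 arrays 1, 2 and 3 are the others, the number is the slide, and every statement about a strain is conditional on this placing. The value-table column for cdc25-22 replicate 3 equalled none of the 6 scanner files. It was not used to choose the bins and is called the held-out column here.

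Rad52 is the mediator protein of homologous recombination: it binds single-stranded DNA and anneals complementary strands, and it gathers at broken DNA and at stalled or collapsed replication forks. In chromatin immunoprecipitation, sheared DNA bound to the protein is compared with the sheared DNA that went into the experiment. A ratio below the array median means that a sequence was recovered less well than most of the genome, not that the protein was absent. Fission yeast genes lie close together, and the DNA before a gene start is often depleted of nucleosomes and rich in A and T; where neighbouring genes are transcribed away from each other, 1 stretch of DNA serves both starts.

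Most of the lowest bins held a gene start. The sequences below are the 150 bases before the annotated start of 7 genes that begin in the lowest bins, read 5′ to 3′ on the strand of the gene from the RefSeq reference ASM294v3, followed by 2 stretches of 150 bases after the end of a gene in the bins with the highest ratios. Capitals mark runs of 5 or more A or of 5 or more T. The windows are chrII:2307219-2307368 (plus strand) for cct1, chrII:2291388-2291537 (plus) for cyp7, chrII:876089-876238 (plus) for wdr83, chrII:871052-871201 (plus) for dld2, chrII:432428-432577 (plus) for alt1, chrII:172477-172626 (plus) for fmd2 and chrI:1112025-1112174 (plus) for nup124. The contrasting windows are chrI:527632-527781 (minus) after psf3 and chrIII:1702350-1702499 (minus) after SPCC417.15.
cct1: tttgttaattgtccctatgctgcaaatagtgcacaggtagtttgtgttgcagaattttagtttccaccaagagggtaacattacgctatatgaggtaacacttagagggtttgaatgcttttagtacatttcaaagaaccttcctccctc
cyp7: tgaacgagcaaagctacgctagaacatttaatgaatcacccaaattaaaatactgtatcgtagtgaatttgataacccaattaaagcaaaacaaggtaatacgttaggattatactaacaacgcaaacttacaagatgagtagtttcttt
wdr83: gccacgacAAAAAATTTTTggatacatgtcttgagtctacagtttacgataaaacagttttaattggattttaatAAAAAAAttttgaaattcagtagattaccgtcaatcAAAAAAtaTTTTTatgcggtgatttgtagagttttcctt
dld2: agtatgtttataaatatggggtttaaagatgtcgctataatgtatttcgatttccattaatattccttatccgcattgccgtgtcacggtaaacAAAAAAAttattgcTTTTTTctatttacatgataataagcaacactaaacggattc
alt1: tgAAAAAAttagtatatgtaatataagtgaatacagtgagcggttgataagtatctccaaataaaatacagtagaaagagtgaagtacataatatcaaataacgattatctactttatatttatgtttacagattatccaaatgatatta
fmd2: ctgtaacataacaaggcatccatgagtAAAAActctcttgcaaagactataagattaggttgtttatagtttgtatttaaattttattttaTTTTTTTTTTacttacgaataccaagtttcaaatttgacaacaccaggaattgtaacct
nup124: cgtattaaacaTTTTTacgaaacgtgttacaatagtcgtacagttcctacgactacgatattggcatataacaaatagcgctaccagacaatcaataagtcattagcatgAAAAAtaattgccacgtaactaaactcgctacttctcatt
psf3, after the gene: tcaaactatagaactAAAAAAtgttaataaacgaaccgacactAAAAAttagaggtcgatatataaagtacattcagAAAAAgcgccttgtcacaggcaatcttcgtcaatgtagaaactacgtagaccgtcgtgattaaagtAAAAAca
SPCC417.15, after the gene: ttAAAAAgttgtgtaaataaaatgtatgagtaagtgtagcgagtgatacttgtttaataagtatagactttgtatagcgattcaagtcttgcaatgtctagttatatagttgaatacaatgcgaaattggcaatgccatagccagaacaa

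These windows did not share a base composition, and neither did windows from the same bins that are not printed. Of those, A+T made up 57.3% before cbp4, 67.3% before gem8, 72% before pwp2 and 70% before cha4. The A+T share was 61.3% before cct1, 68% before cyp7, 72.7% before wdr83, 70% before dld2, 76% before alt1, 72.7% before fmd2 and 65.3% before nup124, against 66.7% after psf3 and 68.7% after SPCC417.15. Runs of A or T took up 0 bases before cct1 and cyp7 and 29 bases before wdr83, where the run-rich stretch is shared with the start of pwp2 on the other strand. Over all 267 gene starts that lay in a depleted bin, the median A+T share of the 150 bases was 67.3%, the same as before the 77 starts in bins enriched on all 6 arrays and before all 4084 starts.

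On each array the depleted bins spread well below the ceiling of the rule. Their median log2 ratio was -0.37, -0.36 and -0.45 on rad3-deleted arrays 1, 2 and 3 and -0.20, -0.30 and -0.32 on cdc25-22 arrays 1, 2 and 3. The rad3-deleted arrays had the lower medians on every slide. Their values also varied more: over all bins the SD was 0.362, 0.442 and 0.543 on rad3-deleted arrays 1, 2 and 3. On cdc25-22 arrays 1, 2 and 3 it was 0.21, 0.291 and 0.289. The part of this spread in the lower medians was not tested. The depleted bins lay closest to the ceiling on cdc25-22 array 1, whose bins varied least. The lowest bin reached -0.99, -0.96 and -1.36 on rad3-deleted arrays 1 to 3, and -0.58, -1.13 and -1.05 on cdc25-22 arrays 1 to 3. Averaged over 6 arrays the depleted bins ran between -0.71 and -0.16, with a median of -0.35, which is a linear ratio of 0.79 to the median probe. These values chose the bins and are given as a description. On each array alone, 27.6% to 43.8% of all 9625 bins lay at -0.1 or less. Without cdc25-22 array 1 (listed as rad3-deleted replicate 1) the same rule would have chosen 586 bins, and without any other array 363 to 503.

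**Figure D1:**
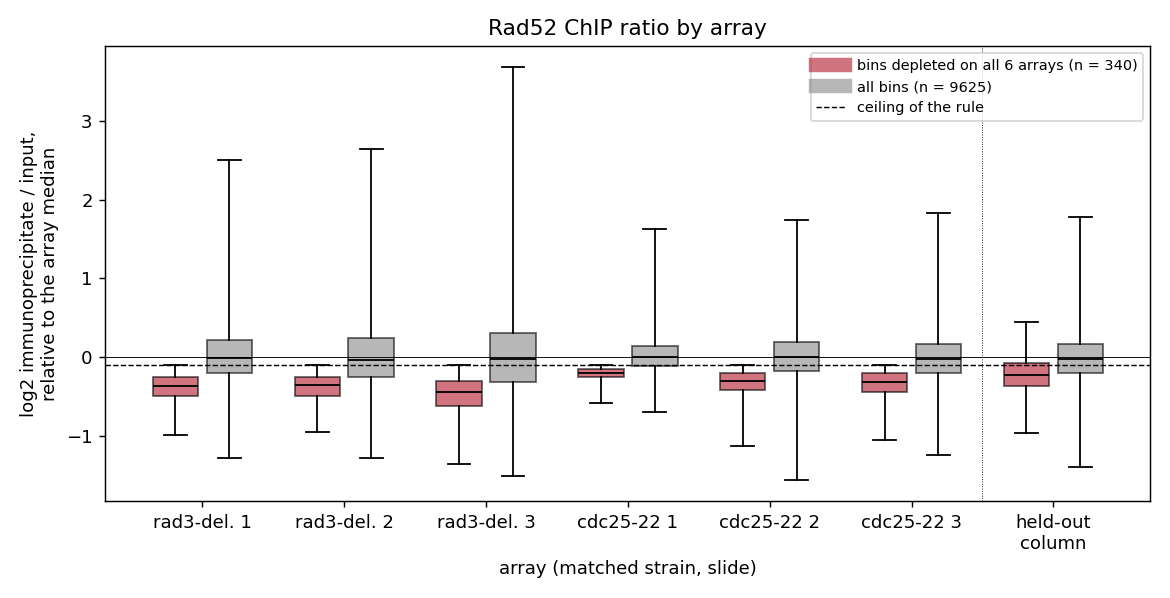
Log2 ratio of immunoprecipitate over input, relative to the array median, for the 340 depleted bins (red) and all 9625 bins (grey) on the 6 arrays and in the held-out column. Boxes show the quartiles and median, whiskers the lowest and highest bin, and the dashed line the ceiling of -0.1; the depleted bins were chosen on the 6 arrays and lie under the line there by construction, while in the held-out column their median is -0.23 and their upper whisker reaches 0.44.

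The held-out column is the only measurement of these bins that the rule did not use. In it, 250 of the 340 depleted bins (73.5%) lay at -0.1 or less, against 3622 of all 9625 bins (37.6%). The median was -0.23 for the depleted bins, 0.34 for the bins enriched on all 6 arrays and -0.02 for all bins, and 43 depleted bins lay above 0. The deeper bins on the 6 arrays were low there more often: of the 85 bins with the lowest means (-0.71 to -0.40) 72 passed the ceiling (84.7%), and of the 85 with the highest means (-0.29 to -0.16) 49 did (57.6%). The column is 1 sample, so no test across samples is possible. Its strain is only what the table says; over all bins it correlated more with the rad3-deleted arrays (r of 0.43, 0.45 and 0.58) than with the cdc25-22 arrays (0.22, 0.18 and 0.41), a description over bins of the same genome.

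The 11 bins with the lowest means are described by their values on each array. The bins at cct1, alt1 and nup124 rest on 2 probes each, the others on 3 to 5. Relative to the array median, both channels were bright on all 6 arrays at cct1 (input 1.46 to 1.97, immunoprecipitate 0.48 to 1.34). The same held at cbp4 (input 1.42 to 1.99, immunoprecipitate 0.61 to 1.71). Both channels were dimmest at syj2 (input -2.17 to -1.21, immunoprecipitate -2.50 to -1.83). The deepest bin, chrII:2307001-2308000, held the start of cct1, which encodes a subunit of the chaperonin that folds actin and tubulin. Its log2 ratio was -0.63, -0.53 and -1.36 on the rad3-deleted arrays and -0.41, -0.83 and -0.50 on the cdc25-22 arrays, with -0.31 in the held-out column. The arrays of the strains overlapped, and rad3-deleted array 3 stood lowest. The next bin, chrII:2291001-2292000, covered the shared promoter of gem8 and of cyp7, a cyclophilin-type prolyl isomerase, and gave -0.76, -0.77 and -1.0 on the rad3-deleted arrays and -0.38, -0.30 and -0.75 on the cdc25-22 arrays. Here all 3 rad3-deleted arrays lay below all 3 cdc25-22 arrays.

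The bins chrII:876001-877000 and chrII:877001-878000 lay side by side. The bin from 876001 on covered the promoter between pwp2, a component of the U3 particle that processes ribosomal RNA, and wdr83; it gave -0.84, -0.56 and -0.66 on the rad3-deleted arrays and -0.34, -0.69 and -0.71 on the cdc25-22 arrays. The bin from 877001 on covered the end of wdr83 and the start of adl1, a DNA ligase gene, and gave -0.49, -0.77 and -0.98 on the rad3-deleted arrays and -0.23, -0.86 and -0.33 on the cdc25-22 arrays, but only -0.05 in the held-out column. Together they took in the whole of wdr83.

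Of the other bins among the 11, 5 more touched a divergent promoter with a named gene. At the start of cbp4 the ratio was -0.86, -0.30 and -0.59 on the rad3-deleted arrays and -0.42, -0.51 and -0.70 on the cdc25-22 arrays. At dld2, a D-lactate dehydrogenase gene, it was -0.56, -0.56 and -0.80 against -0.26, -0.62 and -0.56 in cdc25-22. The bin at alt1, which is annotated as a putative alanine aminotransferase gene, was the most even of the 11: it gave -0.62, -0.56 and -0.54 on the rad3-deleted arrays and -0.42, -0.57 and -0.57 on the cdc25-22 arrays, a range of 0.20. Between cha4, a transcription factor gene, and fmd2, a formaldehyde dehydrogenase gene, it was -0.72, -0.52 and -0.76 on the rad3-deleted arrays and -0.19, -0.46 and -0.62 on the cdc25-22 arrays. At nup124, a nucleoporin gene, it was -0.30, -0.51 and -1.0 on the rad3-deleted arrays and -0.31, -0.22 and -0.92 on the cdc25-22 arrays, so slide 3 gave the lowest value in both strains.

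The remaining bins of the 11 held no gene start. The bin at chrIII:1608001-1609000 touched no protein-coding gene, lay between genes transcribed away from each other and had the highest A+T share of all depleted bins (74.9%); it gave -0.20, -0.83 and -0.76 on the rad3-deleted arrays and -0.19, -0.78 and -0.61 on the cdc25-22 arrays, so slide 1 stood apart in both strains. A bin inside syj2, an inositol polyphosphate 5-phosphatase gene, gave -0.28, -0.96 and -0.77 on the rad3-deleted arrays and -0.48, -0.76 and -0.11 on the cdc25-22 arrays. These 11 bins all lay below 0 in the held-out column, between -0.60 and -0.05.

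**Figure D2:**
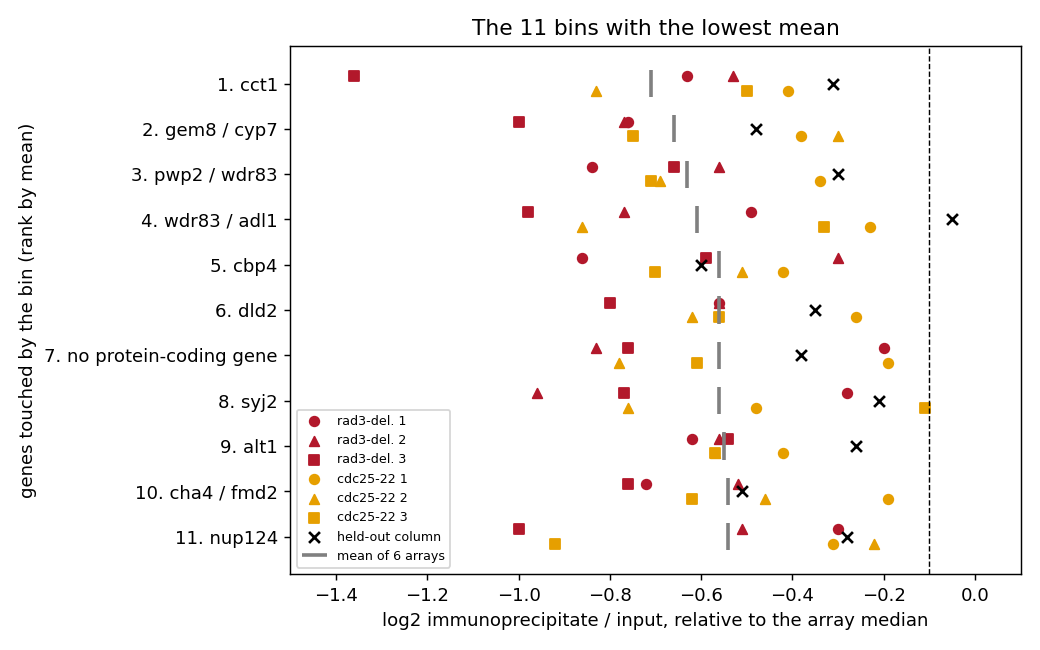
Log2 ratio of immunoprecipitate over input on each array for the 11 bins with the lowest mean, from the lowest at the top, with the protein-coding genes each bin touches. Red symbols are rad3-deleted arrays, orange symbols cdc25-22 arrays (shape gives the slide), crosses the held-out column, grey bars the mean of 6 arrays and the dashed line the ceiling of -0.1; cdc25-22 array 1 often stands nearest to the ceiling, and all 11 crosses lie between -0.60 and -0.05.

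At the other end, the bins that varied least were shallow. The smallest ranges over the 6 arrays were 0.12 at the start of toa1, a subunit gene of the general factor TFIIA, and 0.13 where swf1 and ash2 overlap at their ends, with means of -0.20 and -0.16. The bins inside trs130, dbp6 and vps41 followed, with ranges of 0.15, 0.16 and 0.16 and means of -0.16, -0.23 and -0.20; trs130 and vps41 encode subunits of membrane-tethering complexes, and dbp6 an RNA helicase. In the held-out column these 5 bins split, at 0.05, -0.40, -0.06, -0.62 and 0.20 in that order. The median SD over the 6 arrays was 0.16 for the depleted bins and 0.23 for all bins, a comparison that the ceiling on every array itself narrows. The ceiling cut through a continuous range: the depleted bins nearest to it, at nop4 and swi10, iec5, chrII:675001-676000 and csc3, had means of -0.33, -0.30, -0.28 and -0.34, and the bins that just missed it, at ubp2, lin1, SPCC18.20 and dph7, and epl1, had means of -0.49, -0.30, -0.31 and -0.38. Another 23 bins met the ceiling on all 6 arrays and were left out by the strain limit, and all 23 were lower in rad3-deleted.

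Most depleted bins adjoined no other. A neighbour joins a run only if it meets the same rule on all 6 arrays. Run lengths, and the dip at the bin on these arrays, therefore follow from the choice and do not measure how far low ratios extend. The 340 bins formed 304 runs of adjoining bins, of which 271 were single bins, 31 were pairs, 1 had 3 bins and 1 had 4. At 1 kb from a depleted bin the median of the mean over 6 arrays was -0.15 upstream along the chromosome and -0.16 downstream, against -0.35 in the bin itself, and at 5 kb it was -0.08 and -0.06. The flanks differed between strains: at 2 kb on either side the medians of the rad3-deleted arrays lay between -0.25 and -0.11, while those of the cdc25-22 arrays lay between -0.03 and 0.03. The held-out column had -0.23 in the bin, -0.15 and -0.11 at 1 kb and -0.09 and -0.04 at 5 kb. In that column 58.8% and 51.3% of the bins at 1 kb lay at -0.1 or less. At 5 kb 48.5% and 41.1% did, against 37.6% of all bins.

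**Figure D3:**
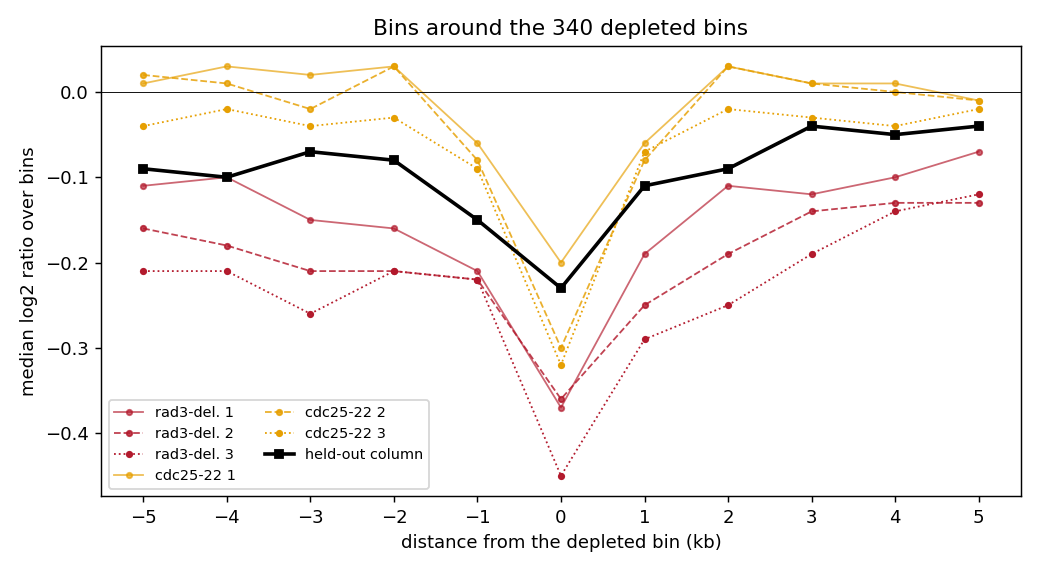
Median log2 ratio of the bins at each distance from the 340 depleted bins, in kb along the chromosome, for each array and the held-out column. All curves have their lowest point at 0 kb (the held-out column at -0.23); on either side the orange cdc25-22 curves return to between -0.04 and 0.03 from 2 kb on, and the red rad3-deleted curves stay between -0.26 and -0.07.

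The longest run, chrIII:514001-518000, covered most of rad16, its end included, and the start of the neighbouring kinetochore gene mis18; rad16 encodes the XPF endonuclease of nucleotide excision repair. Its 4 bins had means of -0.34, -0.37, -0.40 and -0.36, and all 4 were lower on average in rad3-deleted (-0.52, -0.56, -0.53 and -0.42) than in cdc25-22 (-0.16, -0.18, -0.27 and -0.30). In the held-out column they gave -0.03, -0.01, -0.24 and -0.21. The run of 3 bins, chrI:732001-735000, held the start and most of pan2, a subunit gene of the poly(A)-specific ribonuclease, with means of -0.27, -0.46 and -0.40 and held-out values of 0.15, -0.31 and -0.20. The pairs with the lowest means were the 2 bins at wdr83 (-0.62) and the 2 bins at ubp15 and dld2 (-0.52).

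The depleted bins lay at gene starts more often than bins did in general. A protein-coding gene started in 213 of the 340 (62.6%), in 75 of the 273 bins at 0.1 or more on all 6 arrays (27.5%) and in 37.6% of all bins. Starts without a gene end were in 46.2% of depleted bins, 14.3% of enriched bins and 22.4% of all bins, and 2 or more starts were in 52 depleted bins (15.3%), against 2 enriched bins (0.7%) and 4.3% of all bins. Gene ends ran the other way: 84 depleted bins held a gene end (24.7%), against 52.4% of enriched bins and 33.7% of all bins. The median distance from the middle of the bin to the nearest gene start was 368 bp for depleted, 930 bp for enriched and 693 bp for all bins; to the nearest gene end it was 1009, 468 and 795 bp in the same order. Position in the annotation was not used to choose the bins, but neighbouring bins and genes are not independent, so these shares are given as a description without a test.

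The counts also differed by the orientation of neighbouring genes. Divergent intergenic DNA, between genes transcribed away from each other, was touched by 136 depleted bins (40%), 12.1% of enriched bins and 20.2% of all bins. Convergent intergenic DNA, between gene ends, was touched by 7 depleted bins (2.1%), 18.7% of enriched bins and 5.5% of all bins. Tandem intergenic DNA differed little, at 25.6%, 31.1% and 26.4%. Bins wholly inside genes made up 33.5% of the depleted bins and 48.9% of all bins. Among the 92 depleted bins that lay inside exactly 1 gene, 37 (40.2%) were in the part nearest its start when the gene was cut into 3 equal parts, against 23.7% of all such bins, and 15 (16.3%) were in the part nearest its end, against 20.7%.

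**Figure D4:**
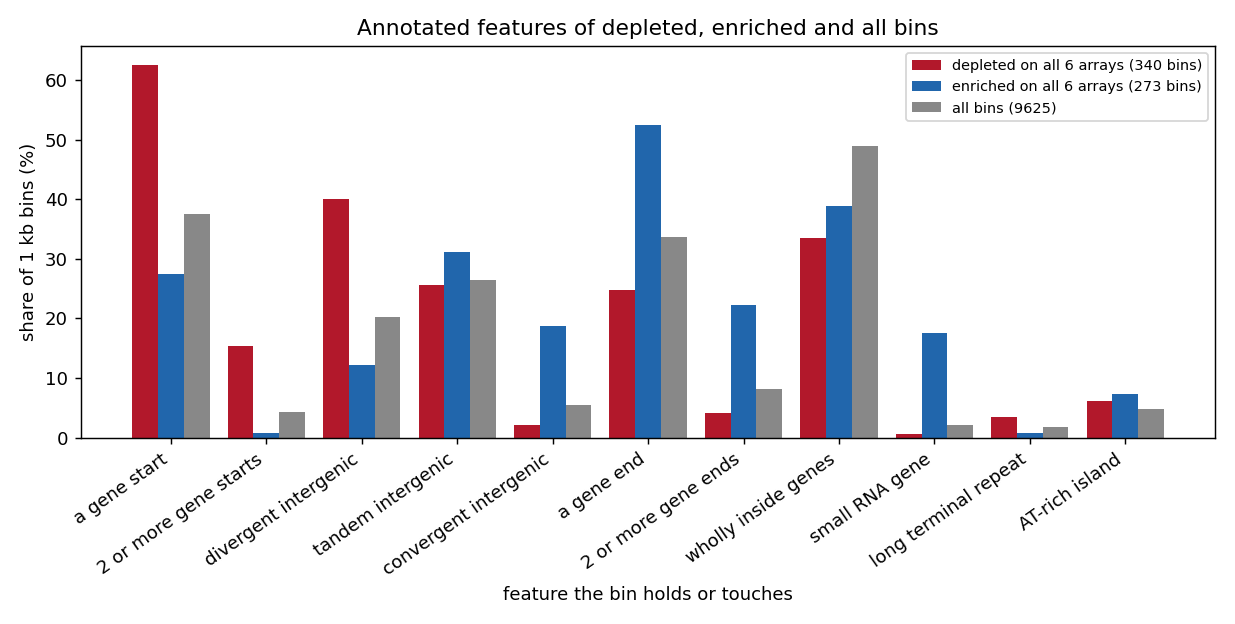
Share of 1 kb bins, in percent, that hold or touch each annotated feature, for bins depleted on all 6 arrays (red), bins enriched on all 6 arrays (blue) and all bins (grey). Red bars are tallest for gene starts (62.6%) and divergent intergenic DNA (40%), and blue bars for gene ends (52.4%), convergent intergenic DNA (18.7%) and small RNA genes (17.6%).

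Small RNA genes, repeats and AT-rich islands were counted in the same way. Genes of tRNA, 5S rRNA, snRNA or snoRNA lay in 2 depleted bins (0.6%), 48 enriched bins (17.6%) and 2.1% of all bins. The highest enriched bins on the arrays, chrIII:1702001-1703000 at SPCC417.15 (mean 1.01) and chrI:527001-528000 at psf3 (mean 0.95), lay in convergent DNA, as did chrIII:1689001-1690000 (mean 0.93), while the next, chrI:3443001-3444000 at the proteasome gene rpt5 (mean 0.92), lay in divergent DNA. Long terminal repeats, left by retrotransposons, lay in 12 depleted bins (3.5%), 0.7% of enriched bins and 1.7% of all bins; repeats have near-identical copies, so their probes may read more than 1 place. AT-rich islands, 500 bp windows of at least 75% A+T that include most known replication origins of this yeast, were in 21 depleted bins (6.2%), 7.3% of enriched bins and 4.8% of all bins. Of these 21, 12 (57.1%) were at -0.1 or less in the held-out column, against 9.7% of all island bins. Chromosome III held 102 depleted bins among 2073 (4.92%), chromosome II 142 among 4076 (3.48%) and chromosome I 96 among 3476 (2.76%).

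Probes were then lined up on gene starts. For the genes that start in a depleted bin, the choice of bins itself puts low values near the start on the 6 arrays, so their profile is a description. Over the 267 genes that start in a depleted bin, probes 0 to 200 bp into the gene averaged -0.43 on the rad3-deleted arrays and -0.32 on the cdc25-22 arrays, and those in the 200 bp before the start averaged -0.39 and -0.35 in the same order. The held-out column averaged -0.24 in the 200 bp before the start and -0.23 in the 200 bp after it, and its lowest step lay further in, at -0.29 in the 200 bp step centred 300 bp into the gene. From 1000 bp into the gene the cdc25-22 arrays were back at 0.00 while the rad3-deleted arrays stayed at -0.20. Over all genes the 200 bp before the start averaged 0.04 on the rad3-deleted arrays, -0.11 on the cdc25-22 arrays and 0.02 in the held-out column. Averaged over all genes, these bases were above the array median on the rad3-deleted arrays and below it on the cdc25-22 arrays, whereas at the depleted starts they were below it on both, as the rule requires. In bins with a start and no end, the medians over the whole genome were -0.04, -0.01 and 0.07 on rad3-deleted arrays 1, 2 and 3, and -0.10, -0.12 and -0.08 on cdc25-22 arrays 1, 2 and 3, so the groups did not overlap on the 6 arrays. The held-out column, which the value table gives as cdc25-22, had -0.01 and lay among the rad3-deleted arrays.

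**Figure D5:**
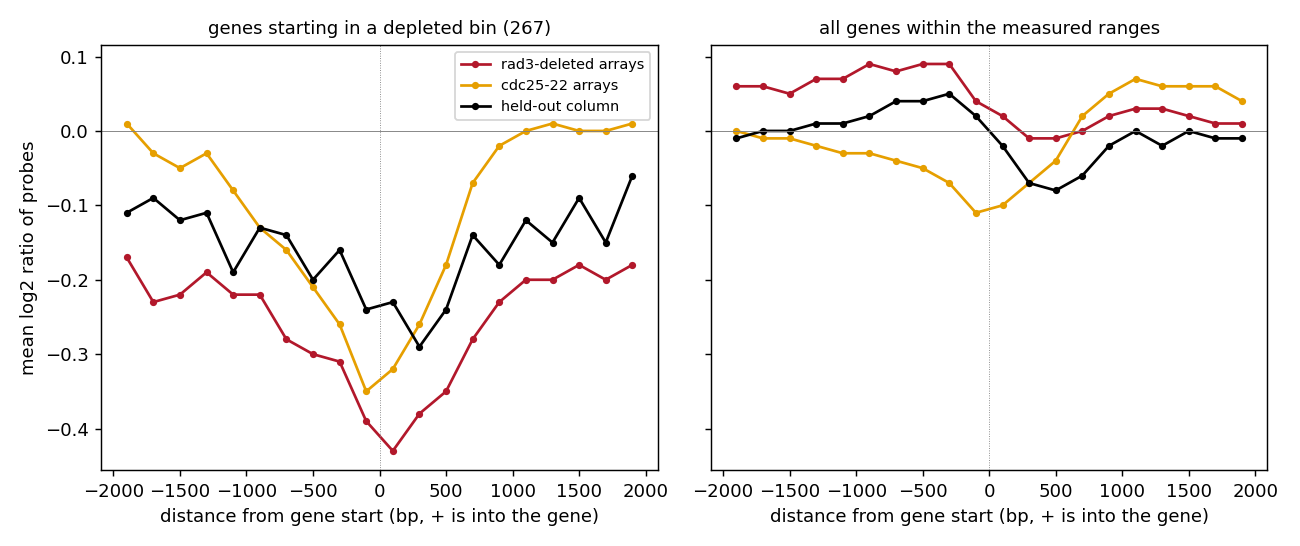
Mean log2 ratio of probes in steps of 200 bp around annotated gene starts, for the 267 genes that start in a depleted bin (left) and all genes (right); red is the mean of the rad3-deleted arrays, orange of the cdc25-22 arrays and black the held-out column, and positive distances run into the gene. On the left the lowest points are -0.43 for rad3-deleted and -0.35 for cdc25-22, where the choice of bins fixes the dip; on the right the dip is -0.11 on the cdc25-22 arrays and -0.01 on the rad3-deleted arrays.

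Base composition and signal strength were set beside the result, since both vary along the genome. The median A+T share was 64.3% in depleted, 64.5% in enriched and 64% in all bins. Gene starts are AT-rich, so the share of bins with a start was also compared within 5 classes of A+T with about equal numbers of bins: it was 48.9%, 47%, 58.2%, 79.2% and 73.7% of depleted bins from the lowest class to the highest, against 17.4%, 27%, 37.3%, 50.1% and 57.3% of all bins. Input signal was brighter at depleted bins: its median, on the log2 scale and relative to the array median, was 0.21, 0.40 and 0.36 on the rad3-deleted arrays and 0.25, 0.42 and 0.34 on the cdc25-22 arrays, against -0.10 to -0.03 for all bins. The immunoprecipitate signal was -0.20, -0.02 and -0.14 on the rad3-deleted arrays and 0.02, 0.11 and 0.01 on the cdc25-22 arrays. For all bins it was -0.10 to -0.05. It was below the array median on all 6 arrays in 34.1% of depleted bins and 32.9% of all bins. Input was above the array median on all 6 arrays in 51.2% of depleted bins and 30.8% of all bins. Both channels were above it on all 6 in 106 of the 340 depleted bins and 2205 of all 9625. A channel's brightness also carries each probe's own hybridisation strength, so these levels do not measure DNA amount, and both are parts of the ratio that chose the bins.

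In 5 equal classes of input brightness, 1.56%, 1.97%, 3.32%, 4.10% and 6.70% of bins were depleted, from the dimmest to the brightest. The share of depleted bins with a gene start was 70%, 68.4%, 75%, 67.1% and 50.4% in the same order, against 35.8% to 38.6% of all bins, and the share at -0.1 or less in the held-out column was 76.7%, 55.3%, 68.8%, 72.2% and 81.4%, against 34.7% to 39.8%. Both shares were above those of all bins in each class. Dim probes were about as frequent in depleted bins as elsewhere: of their 1155 probes, 0.43% to 2.86% were not well above background in at least 1 channel on 5 arrays, and 10.91% on rad3-deleted array 2, against 0.73% to 3.81% and 15.82% of all binned probes. The part of input brightness in the depletion was not tested.

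Short sequences were searched on both strands of the 150 bases before gene starts. Their shares before depleted starts lay on either side of those before all starts, and the differences were not tested. The CCAAT box (CCAAT) was found before 75 of the 267 starts in depleted bins (28.1%), 16.9% of the 77 starts in enriched bins and 22.5% of all 4084 starts. The TATA box (TATAAA) was found before 26.6%, 29.9% and 29.2% in the same order, and a run of 5 A or 5 T (AAAAA) before 69.3%, 79.2% and 70%. The HomolD box (CAGTCACA), known from ribosomal protein promoters of this yeast, was found before 3 starts in depleted bins (1.1%), 6.5% of starts in enriched bins and 2.5% of all starts. ACGCGT, the core bound by the cell-cycle factor MBF, was found before 2.2%, 1.3% and 2%, and TGACGT before 2.6%, 5.2% and 3.9%. A match is only a match of letters; each word may overlap another.

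The depleted bins touched 417 of the 4088 protein-coding genes measured (10.2%), and 267 of the 4088 (6.5%) started in a depleted bin. Most of the touched genes had 1 depleted bin: 38 genes had 2 or more, and 3 had 3 or more. These were rad16 (4 of its 5 bins), tra2 (4 of its 13 bins) and pan2 (3 of its 5 bins). tra2 encodes a large kinase-like protein of the Tra1 family, scaffold subunits of histone acetyltransferase complexes; its depleted bins had means of -0.44, -0.40, -0.35 and -0.36 from the start onwards and were not all adjoining. In 17 genes every measured bin was depleted, among them wdr83 (gene mean -0.62), the ferric-chelate reductase gene frp2 (-0.41), the ubiquitin ligase gene mlo2 (-0.41) and the glutathione S-transferase gene gst1 (-0.40), each with 2 bins. Genes touched were longer (median 2100 bp, against 1795 bp for all), and a longer gene spans more bins that could be chosen.

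Gene lists were made from symbols or from words in the annotated product. Genes with ubiquitin in their product name were touched in 19 of 113 (16.8%), the highest share among the lists, against 10.2% of all genes; the median over the list, of each gene's mean log2 ratio, was -0.06, against 0 for all genes. The bin at ubr1, the ligase that reads N-terminal degradation signals, gave -0.46, -0.51 and -0.61 on the rad3-deleted arrays and -0.23, -0.72 and -0.14 on the cdc25-22 arrays. The bin at the start of ubp15, a ubiquitin hydrolase gene, gave -0.60, -0.60 and -0.39 on the rad3-deleted arrays and -0.33, -0.67 and -0.26 on the cdc25-22 arrays. In mlo2 and itt1 the 2 depleted bins of each gene were shallower, with means of -0.43 and -0.39 in mlo2 and -0.38 and -0.27 in itt1.

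Of 26 measured genes on a hand-made list of recombination and checkpoint symbols, 4 were touched (15.4%), namely chk1, cds1, fbh1 and nse1. The list is not complete. Genes not on it that also had a depleted bin, as was seen afterwards, include sfr1 and swi2, annotated as recombination mediators. Another is nse5, of the same Smc5-6 complex as nse1. Unlisted genes without a depleted bin were not counted, so these additions give no share. The divergent promoter of cds1, the replication checkpoint kinase activated through Rad3, gave -0.39, -0.44 and -0.23 on the rad3-deleted arrays and -0.18, -0.38 and -0.34 on the cdc25-22 arrays, with -0.33 in the held-out column. In chk1, the DNA damage checkpoint kinase gene, 2 adjoining bins where it overlaps meu27 gave means of -0.39 and -0.25. The bins at fbh1, a helicase gene, and nse1, a subunit gene of the Smc5-6 complex, had means of -0.23 and -0.25.

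Among the listed replication genes 3 of 42 were touched (7.1%), each at its start. The bin at mcm6 held 3 gene starts, those of mcm6, sap10 and gfh1, and gave -0.47, -0.94 and -0.71 on the rad3-deleted arrays and -0.27, -0.66 and -0.21 on the cdc25-22 arrays. The bin shared by mcm2 and mlo2 gave -0.19, -0.66 and -0.84 on the rad3-deleted arrays and -0.32, -0.33 and -0.25 on the cdc25-22 arrays, but only -0.05 in the held-out column. MCM proteins form the replicative helicase, and Orc4, whose gene had a depleted bin with a mean of -0.29, is part of the complex that marks origins.

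Some lists had a lower share of touched genes than the 10.2% of all genes. Of the listed glycolysis and fermentation genes 0 of 11 were touched and of the core histone genes 0 of 6. In lists this small, such counts lie close to the share of all genes, and the difference was not tested. The list medians were 0.24 and 0.26. Of the genes annotated as tRNA ligases or synthetases 1 of 30 was touched (3.3%; list median 0): ism1, an isoleucine tRNA ligase gene, with 1 depleted bin at a mean of -0.35. Of the cytosolic ribosomal protein genes 6 of 117 were touched (5.1%), with a list median of 0.09; many have near-identical copies, so their probes may read more than 1 gene. The start of rps1802 gave -0.13, -0.51 and -0.79 on the rad3-deleted arrays and -0.23, -0.52 and -0.45 on the cdc25-22 arrays.

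The other lists lay on either side of the share for all genes. Their order depended on the count used. By starts in a depleted bin, helicases (4.3%) and meiosis or sporulation genes (2.9%) lay below the 6.5% of all genes. By the same count nuclear pore genes and protein kinases (7.4% each), transcription factors (7.9%) and motor proteins (12.5%) lay above it. The shares of touched genes follow. Helicases were touched in 7 of 46 (15.2%; list median -0.08), nuclear pore genes in 4 of 27 (14.8%), motor proteins in 2 of 16 (12.5%), genes with protein kinase in the product name in 9 of 81 (11.1%), transcription factors in 11 of 101 (10.9%) and genes with meiosis or sporulation symbols (mug, meu, spo and the like) in 14 of 136 (10.3%). Vesicle, Golgi, exocyst and sorting genes followed with 4 of 46 (8.7%), genes named for glycoproteins, glucans or sugar transfer with 4 of 55 (7.3%; yos9, alg12, otg2 and omh1, of which the last 3 encode sugar transferases), membrane transporters with 10 of 141 (7.1%) and mitochondrial proteins with 4 of 95 (4.2%). At sid2, the kinase gene of the septation network, the start gave -0.67, -0.65 and -0.60 on the rad3-deleted arrays and -0.13, -0.27 and -0.58 on the cdc25-22 arrays, so the rad3-deleted arrays lay below all cdc25-22 arrays. Of the wtf meiotic driver family, chosen after its values were seen, 2 of 10 measured genes were touched, wtf13 and wtf14; these genes resemble each other closely, so the values cannot be assigned to single copies.

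Between the strains the depleted bins differed little by construction. Their median was -0.40 in rad3-deleted and -0.29 in cdc25-22, with a median difference of -0.11, and 274 of 340 (80.6%) were lower in rad3-deleted. Of all bins, 5428 (56.4%) were lower in rad3-deleted, with a median difference of -0.05. Each rad3-deleted array also had a wider spread over all bins than each cdc25-22 array. The part of that spread in the strain difference was not tested. On slides 1, 2 and 3 the median difference was -0.16, -0.05 and -0.11 for the depleted bins. For all bins it was -0.04, -0.05 and -0.02. The share of depleted bins lower in rad3-deleted was 81.2%, 59.4% and 70.9% on the same slides. The share of all bins was 56.1%, 54.8% and 51.4%. The extremes were the start of nop8, a ribosome biogenesis gene (difference -0.40, with means of -0.62 in rad3-deleted and -0.22 in cdc25-22), and the bin at rpl2301 and oar2 (difference 0.39, with means of -0.29 in rad3-deleted and -0.68 in cdc25-22). At nop8 the arrays did not overlap, and its held-out value was -0.93.

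With the arrays as listed, limma called a strain difference at a Benjamini-Hochberg threshold of 0.05 in none of the 9625 bins (0.0%; unadjusted p-values fell under 0.05 in 118), and in 0 depleted bins (2 unadjusted). With the arrays as placed by the value table, it called 1197 bins (12.4%), 936 higher in rad3-deleted (9.72%) and 261 lower (2.71%), and again 0 depleted bins (16 unadjusted, all lower in rad3-deleted). With the slide as a block it called 1715 bins (17.8%) and 0 depleted bins (25 unadjusted). Below the array median within a strain, it called 278 of the 340 depleted bins in rad3-deleted, where 17.3% of all bins were called, and 20 of 340 in cdc25-22, where 0.416% of all bins were called; with the arrays as listed it called 0 bins in either strain (0.0% each; 512 unadjusted in rad3-deleted and 908 in cdc25-22). The rule used these same values and limited the strain difference, so nothing is read from these counts.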

How the data were processed

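Rad52 ChIP-on-chip was read on 6 two-colour 44K tiling arrays, 3 listed per strain. The scanner files came from Agilent Feature Extraction 10.7.3.1, per the submitters' processing notes. Per the file headers, their signals are the intensity of each spot; for the processed signals, the authors' software had removed background and corrected for dye. The log10 ratio deposited in the same files is of red over green, that is, input over immunoprecipitate, and was not used. The deposited value table was found to hold immunoprecipitate over input as a linear ratio; 5 of 6 columns matched a scanner file on all 42641 probes within 0.001 log2, and that for cdc25-22 replicate 3 matched none, with at most 82 probes that close.

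From the deposited intensities, log2 of green over red processed signal was taken, without control spots or spots flagged as outliers, and the median of each array was subtracted. Probes were averaged in bins of 1000 bp with at least 2 probes measured on all arrays. Annotation came from RefSeq ASM294v3. The file headers name an older genome version; shifting probe positions against G+C share placed 193 of 200 segments of 50000 bp at a shift of 0 and all 200 within 3 bp, and only such ranges of the chromosomes, away from their ends, were used. Bins were depleted at -0.1 or less on 6 arrays, and called enriched here at 0.1 or more on 6 arrays, each with a matched strain difference under 0.4. The processed signals carry a precision set by the number of arrays; the median signal was 580 to 1211 for the immunoprecipitate over a background of 38 to 49, and 560 to 845 for the input over 59 to 71.5.

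Differences were tested with limma 3.58.1 (R 4.3.3), a mean per strain over all 6 arrays and 9625 bins, Benjamini-Hochberg adjusted at 0.05, with the arrays as listed and as matched to the value table, and checked on simulated data. Arrays with the same replicate number shared a slide, per the file headers. With the matched placing their deviations from the strain means correlated in every pair (0.289, 0.207 and 0.171), so the numbers pair the arrays. With the listed placing the correlations were -0.072, -0.336 and -0.599. Each listed group mixes arrays of both matched strains, so the strain difference enters these values and they cannot decide the pairing. Tables were handled with pandas 2.3.3 and numpy 2.4.6 in Python 3.11.15, and figures drawn with matplotlib 3.10.9. The mean signals named for an alternative are not columns of the files, so the median signals took their place.

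The bins and gene lists (17, from symbols or from words in the RefSeq product names) were chosen with earlier results of these data known, and the words for tRNA ligases were widened after the counts were seen. Named were the 12 lowest bins, the 5 with the smallest range, the 5 longest runs, the 4 nearest the ceiling on each side, the extremes of the strain difference, the 12 genes with the most depleted bins, up to 4 genes per list and the 4 highest enriched bins; 1 gene that this rule names, with its bins, is not reported here. The deposited log ratios and probes outside the ranges were not used here.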

Additional observations from a re-analysis of the deposited data

How the results depend on the processing

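The number of depleted bins followed the settings: it was 217 with normexp background correction, 144 with bins of 2 kb, 965 with a ceiling of 0 and 68 with a ceiling of -0.2, against 340, and 363 to 586 when each array was left out in turn. With normexp 153 of the 217 were among the 340, with loess 278 of 330, with a trend in A+T removed 268 of 340, and with the value-table columns 239 of 357. For the held-out column only the cutoff in that column was moved, and the 340 bins were kept. Of these, 87.4% lay at 0 or less there (52.6% of all bins), and 55.6% at -0.2 or less (24.5% of all bins). The bins chosen with other ceilings were not checked in that column. With the cutoff unchanged, leaving out arrays gave 68.6% to 73.0%, against 73.5% for the 340 bins. The share with a gene start was 39.2% in bins of 500 bp (20.2% of all such bins) and 83.3% in bins of 2 kb (65.5%), and 54.7% to 65.1% when arrays were left out. The share touching divergent intergenic DNA was 26.1% in bins of 500 bp (15.2%), 50.7% in bins of 2 kb (30.5%), 47.1% with a ceiling of -0.2 (20.2%), and 30.9% to 41.7% when arrays were left out. The A+T difference from all bins, 0.3 percentage points, changed sign to -0.2 when cdc25-22 array 2 (rad3-deleted replicate 2 as listed) was left out (range -0.2 to 0.65). Strain differences numbered 0 as listed, also with the replicate number as a block and with each array left out, 1197 with files matched, 1715 with files matched and the replicate block (17.8%, with 0 depleted bins among them) and 676 with the value table. Bins below the array median numbered 1661 in rad3-deleted and 40 in cdc25-22 with files matched, against 0 as listed; leaving out arrays as listed gave 0 in rad3-deleted and 0 to 165 in cdc25-22, the 165 when rad3-deleted array 3 was left out. The causes were not tested. All bin values rest on 2 to 6 probes, 42 depleted bins on 2; arrays without dye swaps leave probe-level dye effects in every ratio, and the number of arrays limits the precision.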
